A study of Mus musculus with 6 samples.

Results

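NF-YA occupancy was examined at 10 genes of the p53 and mitochondrial apoptosis pathway in cultured mouse muscle stem cells (MuSCs): *Trp53*, *Mdm2*, *Mdm4*, *Bax*, *Bak1*, *Bbc3*, *Pmaip1*, *Bcl2*, *Bcl2l1* and *Mcl1*. The genes were chosen by name, with earlier results of these data known, and their peaks were the rows of the peak table that carried 1 of these symbols. Of the 10 genes, 5 had such a peak, and these genes held 7 of the 9056 NF-YA peaks of the series. In the table as a whole, 5146 peaks carried a gene symbol and named 4128 genes.

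The series had 6 CUT&RUN libraries, a method in which an antibody guides a nuclease to its target so that the DNA around the target is cut out and sequenced. All came from wild-type MuSCs of C57BL/6 mice in an activated and proliferating state in culture, without a further treatment. Of these, 3 libraries were made with an antibody to NF-YA (Sc-17753, Santa Cruz) and 3 with mouse IgG. No IgG values were given for the peaks, so no level could be set against its control. The NF-YA libraries are described as biological replicates in the study's reporting summary, while the labels do not say whether they came from separate cultures or animals. Replicate 1 was sequenced with shorter reads and had fewer uniquely mapped reads than replicates 2 and 3, so part of the spread may be technical. With 1 group there was no comparison of conditions to test. The table holds binding and no expression, so the labelled cell type could not be checked with marker genes.

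NF-Y is a transcription factor of 3 subunits that binds CCAAT boxes in promoters, and NF-YA makes the specific contact with the box. p53, encoded by *Trp53*, is a transcription factor that is kept low by the ligase MDM2 and its relative MDM4 and accumulates upon DNA damage, when it switches on genes for cell cycle arrest, repair and apoptosis. Apoptosis through mitochondria is decided within the BCL2 family: BAX and BAK form pores in the outer mitochondrial membrane, BCL2, BCL-XL and MCL1 hold them back, and BH3-only proteins such as PUMA and NOXA counteract these guardians.

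Levels are given as normalised reads per peak, which are read counts divided by a size factor of each library and rounded by the authors. By estimate, 1 read counted as 0.664, 1.48 and 1.02 normalised reads in replicates 1 to 3, so that about 481266, 226909 and 334615 reads lay in peaks. Values of up to 1.99, 4.43 and 3.06 rested on at most 3 reads, which is called the floor below. Triplets of values are in the order of replicates 1, 2 and 3. Levels of different genes are compared per kb of peak, because a longer peak collects more reads.

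A peak was present at 5 of 10 members, compared with 19% of the 21938 protein-coding genes in GENCODE M21. The shares of protein-coding genes were counted by gene identifier, which 6191 peaks carried, more than the 5146 with a symbol. A peak centred within 1000 bp of the gene start, here called a promoter peak, was present at 3 of 10 members, compared with 14.8% of protein-coding genes. Most of the member peaks were weak. Their median was 8 normalised reads per peak, compared with 15 for all peaks, and 4 of the 7 peaks had a mean below 10. Per kb of peak, 2 of 7 (*Bcl2l1* and *Bbc3*) were above the median of all peaks, which was 79.5 normalised reads per kb.

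**Figure D1:**
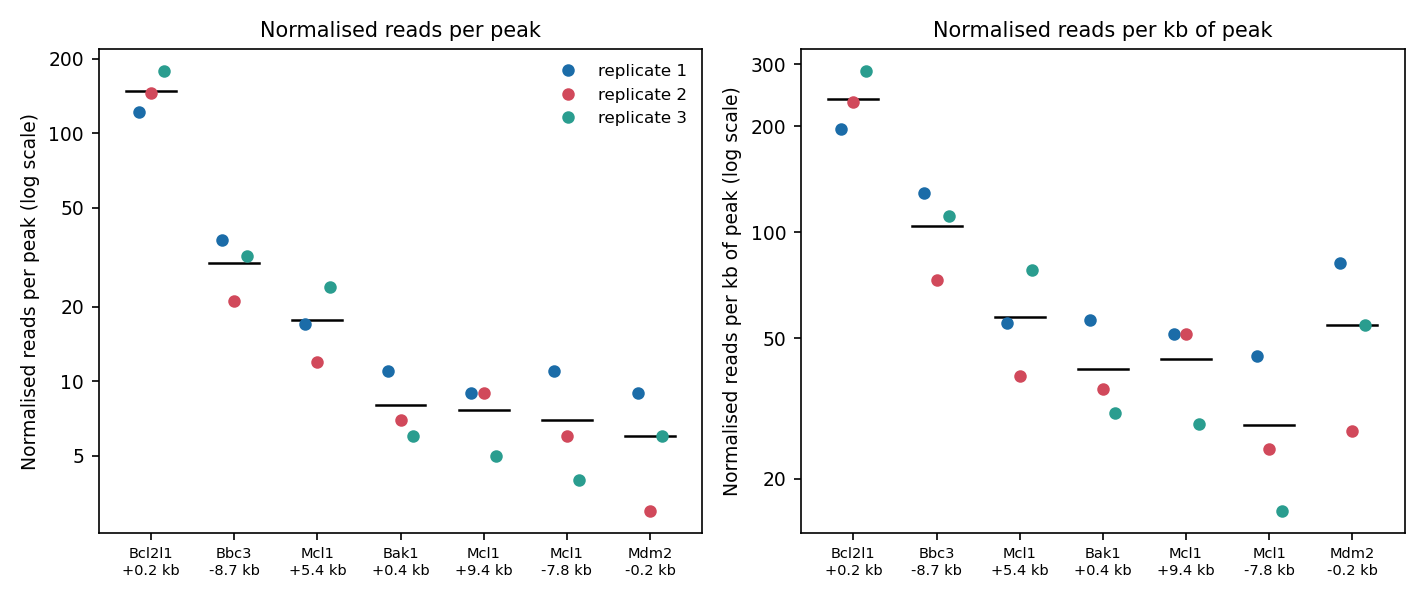
The 3 NF-YA libraries at the 7 member peaks, as normalised reads per peak (left) and per kb of peak (right), both on a log axis, with the distance of the peak centre from the gene start under each name. Points are single libraries and bars their mean; *Bcl2l1* lies above all other member peaks in every library on both scales.

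The sequences under the peaks that carry most of the signal, and those next to the starts of *Mdm2* and *Trp53*, are shown with CCAAT boxes in capitals. A box on the opposite strand reads ATTGG. The sequences are from GRCm38.p6 on the strand of the gene, and none of them overlaps an exon of GENCODE M21. The first is the intronic part of the *Bcl2l1* peak with both of its boxes (chr2:152831345-152831497, minus strand), and the second the whole *Bbc3* peak (chr7:16299589-16299875, plus strand). The third runs from the far edge of the *Mdm2* peak to the last base before the gene start (chr10:117710759-117710977, minus strand). The fourth holds the 30 bases before the *Trp53* start (chr11:69580329-69580358, plus strand), where no peak was found. The fifth is a peak inside *Bcl2* that the table assigns to no gene (chr1:106703340-106703450, minus strand), and the last is the centre of the strongest *Mcl1* peak, which has no box (chr3:95664153-95664253, plus strand).
Bcl2l1: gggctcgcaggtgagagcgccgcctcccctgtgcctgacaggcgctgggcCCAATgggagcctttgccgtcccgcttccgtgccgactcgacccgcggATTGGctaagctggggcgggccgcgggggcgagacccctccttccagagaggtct
Bbc3: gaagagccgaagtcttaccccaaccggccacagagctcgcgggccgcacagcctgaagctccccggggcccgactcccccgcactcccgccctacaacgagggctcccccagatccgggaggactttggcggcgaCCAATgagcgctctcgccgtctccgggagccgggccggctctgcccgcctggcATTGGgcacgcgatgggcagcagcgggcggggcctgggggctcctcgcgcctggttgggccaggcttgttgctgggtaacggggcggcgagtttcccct
Mdm2: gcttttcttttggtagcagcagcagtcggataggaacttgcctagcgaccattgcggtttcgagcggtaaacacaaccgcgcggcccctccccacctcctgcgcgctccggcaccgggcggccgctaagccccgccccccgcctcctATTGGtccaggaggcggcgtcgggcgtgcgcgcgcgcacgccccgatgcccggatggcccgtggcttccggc
Trp53: gagtctcgcgggggttgctgggATTGGgac
Bcl2: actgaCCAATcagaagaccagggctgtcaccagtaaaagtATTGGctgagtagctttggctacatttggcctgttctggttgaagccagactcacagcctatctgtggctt
Mcl1: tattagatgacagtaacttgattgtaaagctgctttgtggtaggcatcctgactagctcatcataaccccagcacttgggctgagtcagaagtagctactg

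Among the p53 regulators, *Mdm2* was the only member with a promoter peak, and it was the weakest of the 7 member peaks per peak. *Mdm2* (ENSMUSG00000020184, minus strand) encodes the ubiquitin ligase that marks p53 for degradation and is itself a p53 target. Its peak at chr10:117710868-117710977 is 110 bp long and is centred 165 bp upstream of the gene start, outside the gene. The 3 libraries had 9, 3 and 6 normalised reads there, with a mean of 6 ± 3 (SD, n = 3). This corresponds to about 14, 2 and 6 reads, so replicate 2 was below the floor of 3 reads. Per kb the peak had 54.5 ± 27.3 normalised reads (SD, n = 3), and 12.5% of the 3746 promoter peaks were lower on that scale. The p53-responsive promoter of *Mdm2* is known to lie in its first intron. Transcripts that begin downstream of the first exon start 631 to 901 bp or more from the peak centre, and no peak was centred within the gene.

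*Trp53* (ENSMUSG00000059552, plus strand) itself had no annotated peak. The nearest peak centre lay 1084 bp upstream of its start at chr11:69579199-69579350, within *Wrap53*, the neighbour that is read in the opposite direction and to which the table assigned the peak. It held 13, 7 and 9 normalised reads, with a mean of 9.67 ± 3.06 (SD, n = 3), and contained 0 CCAAT boxes. The *Trp53* promoter did contain one, 6 bp upstream of the start on the opposite strand, as shown above. *Mdm4* (ENSMUSG00000054387), whose product binds p53 and blocks its activity, was far from any peak: the nearest centre was 54236 bp from a transcript start.

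Of the pore-forming effectors, *Bak1* had a weak promoter peak and *Bax* had none. The *Bak1* peak (ENSMUSG00000057789, minus strand) at chr17:27028502-27028696 lay in an exon 410 bp downstream of the gene start. It spanned 3 other annotated starts of *Bak1*, at 12, 21 and 95 bp from the centre, and a start of *Ggnbp1* lay 660 bp away. The peak held 11, 7 and 6 normalised reads, with a mean of 8 ± 2.65 (SD, n = 3). Per kb it had 41 ± 13.6 normalised reads (SD, n = 3), which 4.38% of promoter peaks fell below. At *Bax* (ENSMUSG00000003873, minus strand) no row was listed, and the nearest peak centre was 4406 bp from a transcript start, beyond the end of the gene. Within 10000 bp of a *Bax* start there were 3 peaks, and the table assigned all 3 to the neighbour *Ftl1*, which encodes the ferritin light chain. The strongest of them, at chr7:45459752-45460056 and 20 bp from the *Ftl1* start, held 80, 98 and 108 normalised reads, with a mean of 95.3 ± 14.2 (SD, n = 3).

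The BH3-only gene *Bbc3* (ENSMUSG00000002083, plus strand), which encodes PUMA, had the second highest level among the members, at a site far from its start. The peak at chr7:16299589-16299875 is 287 bp long and is centred 8661 bp upstream of the gene in intergenic sequence. It held 37, 21 and 32 normalised reads, with a mean of 30 ± 8.19 (SD, n = 3), and every library was well above its floor. Per kb it had 105 ± 28.5 normalised reads (SD, n = 3), and 76.8% of the 2445 annotated peaks beyond 1000 bp of a gene start were lower. The base composition of this peak was unusual for its distance: 72.1% of its bases were G or C, and the CpG ratio, observed over expected, was 0.777. The medians of the distal annotated peaks were 53.8% and 0.238, and those of promoter peaks 61.3% and 0.752. Only 0.941% of the distal annotated peaks had a higher G and C content than the *Bbc3* peak. The nearest start of another gene was that of *Ccdc9*, 12937 bp away. *Pmaip1* (ENSMUSG00000024521), which encodes NOXA, had no peak, and the nearest centre was 252472 bp from a transcript start.

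Among the anti-apoptotic genes, *Bcl2l1* had by far the highest level of all members. *Bcl2l1* (ENSMUSG00000007659, minus strand) encodes BCL-XL. Its peak at chr2:152831201-152831821 is 621 bp long, spans the gene start and is centred 217 bp downstream of it, in the first intron. The annotated *Bcl2l1* starts outside the peak lie 399 to 2976 bp downstream of its centre, so the peak is upstream of those starts. The libraries held 122, 146 and 178 normalised reads, with a mean of 149 ± 28.1 (SD, n = 3), from about 184, 99 and 175 reads. The coefficient of variation (CV) was 18.9%, compared with 8.42% from counting error alone and a median of 12.1% in the 200 peaks closest in level. Per kb the libraries held 196, 235 and 287 normalised reads, with a mean of 239 ± 45.2 (SD, n = 3), and 80.8% of promoter peaks and 81.5% of the strongest peaks of all 4128 genes were lower. In normalised reads per peak, *Bcl2l1* ranked 423 of all peaks. Its neighbours in that order were *Zfp868*, which encodes a zinc finger protein, at 149 ± 38.7 and *Kdm6b*, which encodes a histone demethylase, at 149 ± 27.8 (both SD, n = 3). The differences between these 3 peaks were far below the SD of each. A second peak inside *Bcl2l1*, in an intron at chr2:152810312-152810481 and 18138 bp from the nearest start, held 7, 6 and 6 normalised reads and was assigned to no gene.

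*Mcl1* (ENSMUSG00000038612, plus strand), which encodes a short-lived guardian of mitochondria, had 3 peaks, and none of them lay at its start. Of the 4128 genes named by at least 1 peak, 3.97% had 3 or more peaks. The peak at chr3:95664050-95664356 was centred 5415 bp downstream of the gene start, beyond the end of the gene, and held 17, 12 and 24 normalised reads, with a mean of 17.7 ± 6.03 (SD, n = 3). The peak at chr3:95668133-95668307, 9432 bp downstream of the start, held 9, 9 and 5 normalised reads, with a mean of 7.67 ± 2.31 (SD, n = 3). Other starts were nearer to this peak than that of *Mcl1*: a transcript of *Adamtsl4* began 8931 bp away, and the RefSeq gene *Gm52627* 3952 bp away. The peak at chr3:95650889-95651135, 7776 bp upstream, held 11, 6 and 4 normalised reads, with a mean of 7 ± 3.61 (SD, n = 3). Per kb the means were 57.5, 43.8 and 28.3 normalised reads in the same order, all below the median of 70.5 for distal annotated peaks. The order of the 3 peaks per kb was not the same in every library: in replicate 2 the peak furthest downstream was higher than the other two.

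*Bcl2* (ENSMUSG00000057329, minus strand), the founding member of the family, had no annotated peak. A weak peak lay in its intron at chr1:106703340-106703450, 9784 bp from the nearest start, with 5, 4 and 6 normalised reads, with a mean of 5 ± 1 (SD, n = 3). Replicate 2 was at the floor of 3 reads. In contrast to the annotated peaks of *Mcl1* and *Bak1*, it contained 2 CCAAT boxes in the 111 bp shown above.

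**Figure D2:**
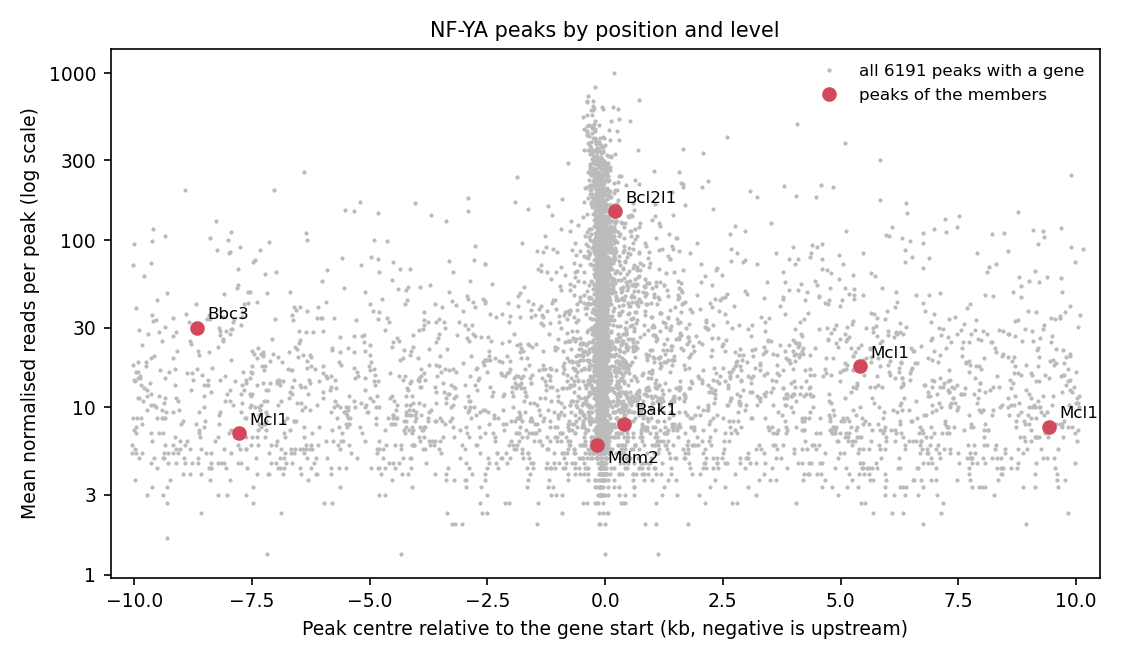
Mean normalised reads per peak (log axis) against the position of the peak centre relative to the gene start (kb) for all 6191 peaks with an annotated gene (grey) and the 7 member peaks (red). *Bcl2l1* lies high in the dense column at the gene start, *Mdm2* and *Bak1* low in it, and *Bbc3* and *Mcl1* several kb away.

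In the order of means per kb, the 7 member peaks ran from *Bcl2l1* over *Bbc3*, the nearer downstream peak of *Mcl1*, *Mdm2*, the farther downstream peak of *Mcl1* and *Bak1* to the upstream peak of *Mcl1*. The only neighbours in this order whose libraries did not overlap were *Bcl2l1* and *Bbc3*. The lowest *Bcl2l1* library had 196 normalised reads per kb and the highest *Bbc3* library 129. Compared within each library, *Bbc3* was above the nearer downstream peak of *Mcl1* in 3 of 3 libraries, and *Bak1* above the upstream peak of *Mcl1* in 3 of 3. The other 3 pairs of neighbours changed places between libraries, so their order was not resolved. The median CV of the member peaks was 33.1%, compared with 25.4% for all peaks. Most member peaks were weak, and the 200 peaks closest in level to each of them had median CVs whose own median was 30.1%. Replicate 1, the library with the shorter reads and with the most reads in peaks, was the highest in 4 of 7 member peaks. The share of all peaks in which replicate 1 was the highest was not determined. The count therefore does not show whether this is particular to the member genes. The study's reporting summary lists more called peaks for replicate 1 than for either other NF-YA library. How far the common peak set leans on replicate 1 was not tested, nor was the part of read length and depth.

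CCAAT boxes were then located at the members. Of the 7 member peaks, 1 (*Bbc3*) had a box within 50 bp of its centre. The share was 52.9% among all 9056 peaks, 64.6% among promoter peaks and 37.2% among the 3097 peaks with a mean below 10, to which 4 of the member peaks belong. Over the whole length of the peak, 2 of 7 (*Bcl2l1* and *Bbc3*) had a box, compared with 64.5% of all peaks. Both of these also led in level. A longer peak offers more sequence for a box. The *Bcl2l1* and *Bbc3* peaks were 621 and 287 bp long, compared with a median of 197 bp for all peaks. The *Mcl1* peaks of 307 and 247 bp were also longer than that median and had no box. How far peak length accounts for the boxes over the whole peak was not tested.

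The boxes of *Bcl2l1* and *Bbc3* had a similar arrangement, with 2 boxes on opposite strands. In the *Bcl2l1* peak they lay 283 and 331 bp downstream of the gene start, 66 and 114 bp from the peak centre, and their starts were 48 bp apart. Both boxes were upstream of the annotated *Bcl2l1* starts outside the peak. In the *Bbc3* peak they lay 6 and 47 bp from the centre, and their starts were 53 bp apart. The box closer to the centre of the *Bbc3* peak matched the longer NF-Y consensus, which was found at the centres of 25% of all peaks and at none of the other members. Peaks at the level of *Bcl2l1* usually had boxes: 99.5% of the 791 peaks that reached a mean of 100 normalised reads contained a box, with a median of 3. *Bcl2l1*, with 2, was 1 below this median. Within 50 bp of the centre, 74.1% of the 791 peaks had a box, while *Bcl2l1* had none there.

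At *Mdm2*, the box lay outside the peak. It was 95 bp from the peak centre towards the gene, 70 bp upstream of the start and on the opposite strand. The 3 peaks of *Mcl1* and that of *Bak1* contained no CCAAT within their limits. Boxes did lie just outside some of the *Mcl1* peaks. At the nearer downstream peak a box was 181 bp from the centre, and at the upstream peak boxes were 175 and 203 bp from it. For the 3 other motifs searched, on both strands within 50 bp of the centre, the GC box GGGCGG was found in 0 of 7 member peaks and 21.3% of all peaks. The E-box CACGTG was found in 0 of 7 and 3.16%, and the p53 half-site in 1 of 7 (*Mdm2*) and 2.85%. Outside the central window, 3 GC boxes lay in the *Bcl2l1* peak and 3 in the *Bbc3* peak. A match is a stretch of letters and does not show that a factor was bound.

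**Figure D3:**
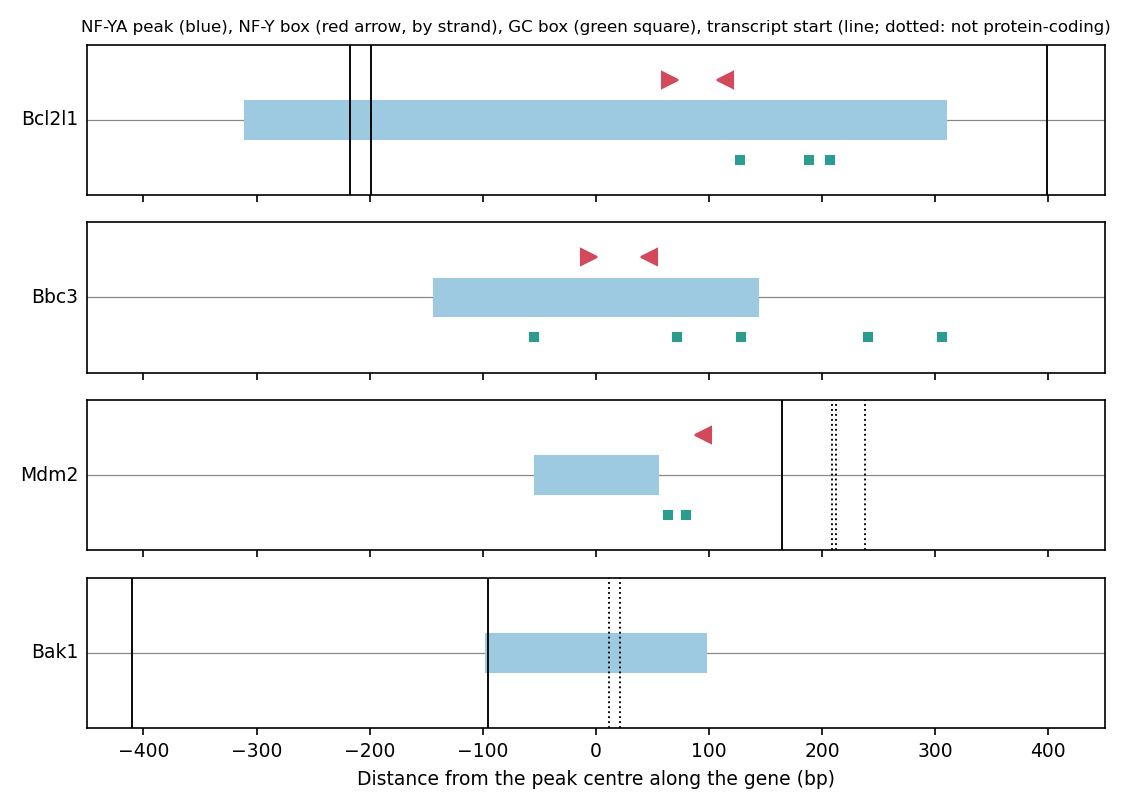
Peaks of *Bcl2l1*, *Bbc3*, *Mdm2* and *Bak1* (blue) with CCAAT boxes (red arrows pointing along the strand of the box), GC boxes (green squares) and annotated transcript starts (lines, dotted for transcripts that are not protein-coding), by distance from the peak centre in bp along the gene. The boxes of *Bcl2l1* and *Bbc3* lie inside the peak and face each other, that of *Mdm2* lies between peak and gene start, and *Bak1* has none.

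The promoters of the members were also searched, whether or not they had a peak. RefSeq promoters of 300 bases (GRCm38.p6), from 250 bases before to 50 after the start, were given for 9 members with 14 starts in all, and *Pmaip1* was not among them. CCAAT was present at 3 of the 14 starts, 1 each in *Trp53*, *Mdm2* and *Bbc3*, compared with 37.4% of all 32851 promoters. In *Bbc3* it lay 98 bp upstream of the start furthest downstream, which was 10699 bp from the *Bbc3* peak. A peak lay within 1000 bp of 24.2% of the promoters with CCAAT and of 6.25% of those without. Of the 3 members with a CCAAT promoter, only *Mdm2* had a peak within that distance. *Bcl2l1*, by contrast, had no CCAAT in any of its promoter windows. Its boxes lie downstream of the window at the gene start and upstream of the windows at its other RefSeq starts.

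Further genes of the pathway were examined in 4 lists with 87 genes, all of which were found in the annotation. A peak was annotated to 30 of them (34.5%), compared with 19% of protein-coding genes. A promoter peak was present at 24 of the 87, compared with 14.8% of protein-coding genes. By list, in the order below, 23.8%, 41.7%, 28.6% and 39.3% of the genes had a peak. The median of the strongest peaks of the 30 genes was 96.9 normalised reads per kb, compared with 114 for the 4128 genes named by a symbol. A total of 8 were above *Bcl2l1* per kb.

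Among the regulators of p53, 5 of 21 genes had a peak. *Chek2*, which encodes a DNA damage kinase that phosphorylates p53, held 265, 276 and 263 normalised reads, and per kb 527 ± 13.8 (SD, n = 3). *Ppm1d*, encoding the phosphatase that switches p53 signalling off, had 294 ± 74.7 normalised reads per kb (SD, n = 3), and *Trp53bp1*, encoding a repair factor that binds p53, had 92.8 ± 34.8 (SD, n = 3). No peak was annotated to the kinase genes *Atm*, *Atr* and *Chek1*, but a peak with 9.67 ± 2.31 normalised reads (SD, n = 3) lay 198 bp from a start of *Atm* and was assigned to its neighbour *Npat*.

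Of the p53 targets outside the BCL2 family, 10 of 24 had a peak. *Ccng1*, which encodes cyclin G1, held 177, 214 and 189 normalised reads, and per kb 491 ± 47.9 (SD, n = 3). *Sesn2*, encoding a stress-inducible inhibitor of mTORC1 signalling, had 299 ± 20 normalised reads per kb (SD, n = 3) in the strongest of its 4 peaks, 5204 bp from the start, and *Aen*, encoding an apoptosis-enhancing nuclease, had 315 ± 17.9 (SD, n = 3). No peak was annotated to *Cdkn1a*, the p53 target that encodes the cell cycle inhibitor p21.

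In the remaining BCL2 family, 4 of 14 genes had a peak, and none was above *Bcl2l1* per kb. The BH3-only gene *Bmf* had 200 ± 15.6 normalised reads per kb (SD, n = 3), and *Bcl2l11*, which encodes BIM, had 134 ± 38.2 (SD, n = 3). *Bok*, a relative of *Bax* and *Bak1*, had 80.4 ± 13.4 normalised reads per kb (SD, n = 3). *Bmf* came closest to *Bcl2l1*: per kb it held 187, 217 and 195 normalised reads, below *Bcl2l1* in 3 of 3 libraries, although the ranges of both genes overlapped.

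Caspases and other death machinery had a peak in 11 of 28 genes. *Cflar*, which encodes the caspase-8 inhibitor FLIP, held 184, 318 and 280 normalised reads, and per kb 436 ± 115 (SD, n = 3). *Casp2* had 250.2 ± 16.2 and *Traf2*, which encodes an adaptor of TNF receptor signalling, 242 ± 33.8 normalised reads per kb (SD, n = 3), values close to that of *Bcl2l1*.

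**Figure D4:**
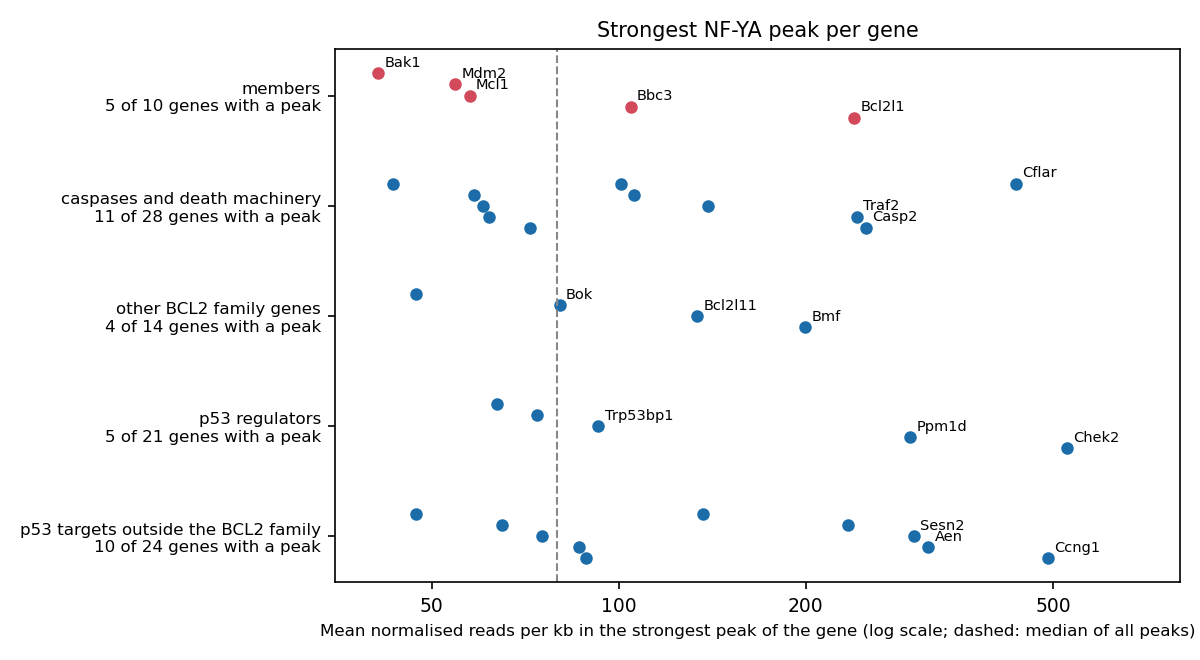
Mean normalised reads per kb in the strongest peak of each gene (log axis) for the 10 members and the 4 pathway lists, with the number of genes that had a peak; points are genes and the dashed line is the median of all peaks, 79.5. A total of 8 list genes lie right of *Bcl2l1*, and *Bak1*, *Mdm2* and *Mcl1* lie left of the median.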

How the data were processed

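NF-YA CUT&RUN libraries of wild-type MuSCs were analysed from the deposited peak table. The deposited values are a score, namely read counts of each peak after DESeq2 size-factor normalisation, rounded to whole numbers by the authors. According to the methods and processing notes, the authors used Trimmomatic 0.39, STAR 2.7.9a (mm10), Picard 2.25.5, MACS2 for the peaks, featureCounts and DESeq2 1.30.0, and annotated peaks within 10000 bp of a start. Peaks were called on the same libraries, which favours high values. The scaling hides a change common to all peaks. The value of 1 read was estimated by maximum likelihood and tested on simulated data. Read numbers and floors cover counting error only. All members with all annotated peaks were named, with the 3 genes of each list whose strongest peak had the highest mean per peak, and the neighbours of the strongest member peak in rank. Other gene names were chosen after their values were seen. Members and lists were chosen with earlier results of these data known. Motifs were searched in GRCm38.p6, and gene models were GENCODE M21, which gave the member genes of all 7 peaks the same start and end as the table. Python 3.11.15, numpy 2.4.6, pandas 2.3.3, pysam 0.24.0 and matplotlib 3.10.9 were used. No group comparison was tested. Alternatives covered distance to any transcript start, a minimum mean of 10, values per kb, equal library sums, other motif windows and leaving out each library.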

Additional observations from a re-analysis of the deposited data

How the results depend on the processing

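No paired analysis was possible because values of a single group were analysed. Of 42 alternatives over 10 results, 31 stayed within the spread or within 1.5 times the count. Among them were all 20 for the level of the strongest peak of each member. Most of these 20 left out 1 library, and their outcome was fixed in advance. Leaving out 1 of 3 values always moves a mean by less than the SD of the 3. They therefore do not show that the levels are stable. The 3 alternatives that used more than 3 reads in every library, the peak with 100 bp to each side, or the lists without *Wrap53* were chosen after seeing the data. The number of members with a peak was 3 within 1000 bp of any transcript start, 8 within 10000 bp whatever gene the table assigned, and 3 with a minimum mean of 10, where *Mdm2* and *Bak1* were lost. The median percentile of the member peaks was 26.4, and 55.3 with a minimum mean of 10, which left 3 peaks. The median CV was 27.3% with that minimum and ranged from 28.3% to 31.4% when each library was left out, and the cause of this change was not tested. A CCAAT box was found in 3 of 7 member peaks within 100 bp of the centre, compared with 64.9% of all peaks. Over the whole peak it was found in 2, compared with 64.5%. With 100 bp added to each side of the peak the count was 5. Added sequence cannot lower such a count, and the share of all peaks in that window was not determined. Reads limit the weak peaks most: *Mdm2* rested on about 22 reads over the 3 libraries, *Bcl2l1* on 458.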
